A study of Mus musculus with 10 samples.

Results

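Genes of the matrix-degrading metalloproteinases and of their inhibitors were followed in O9-1 cells, an immortal line of mouse cranial neural crest origin, after inactivation of *Kat5* or *Ep400*. Members were all genes of the deposited count table whose symbols name a matrix metalloproteinase (*Mmp*), a tissue inhibitor of metalloproteinases (*Timp1* to *Timp4*), an ADAM, an ADAMTS or one of *Adamtsl1* to *Adamtsl5*. This rule found 84 of 43346 genes. It uses symbols and no measured value, but it was chosen with earlier results of these data known. The members comprise 23 *Mmp*, 4 *Timp*, 33 *Adam*, 19 *Adamts* and 5 *Adamtsl* genes. Polyadenylated RNA was sequenced from 4 biological replicates of unedited O9-1 cells (WT/1 to WT/4), from 3 clones in which CRISPR/Cas9 had disrupted *Kat5* (Kat5/1 to Kat5/3) and from 3 clones in which it had disrupted *Ep400* (Ep400/1 to Ep400/3). All cells, wildtype included, were tetraploid and grew on Matrigel in conditioned medium. Each knockout library is 1 clone, expanded from a single sorted cell after transfection, a step not stated for the wildtype samples. Differences due to the lost gene and to this cloning cannot be told apart here. The *Kat5* ko clones carried frameshifts in every allele, as did Ep400/1, whereas Ep400/2 and Ep400/3 also carried alleles with short in-frame deletions at the ATP binding site. Kat5 is the histone acetyltransferase and Ep400 the remodeling ATPase of the Tip60/Ep400 chromatin complex.

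Matrix metalloproteinases are zinc-dependent enzymes that cleave collagens, proteoglycans and other components of the extracellular matrix, and most are secreted as inactive precursors. ADAMs are membrane-bound relatives, several of which release the extracellular parts of growth factors and receptors, and ADAMTS enzymes are secreted proteinases for proteoglycans and procollagens. ADAMTS-like proteins share the domains that bind the matrix but lack the catalytic part. TIMPs bind the active site of these enzymes and block it, and migrating neural crest cells are known to use both proteinases and TIMPs when they move through the embryonic matrix.

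Between 30968945 and 48301792 reads were counted on genes per library, and mitochondrial genes took 0.893% to 3.24% of them. *Kat5* transcripts reached 49.2 to 58.3 CPM (reads on the gene per 1000000 normalized reads) in wildtype cells and 16.3 to 23.0 CPM in the *Kat5* ko clones, and *Ep400* transcripts 158 to 168 CPM in wildtype cells and 54.4 to 60.4 CPM in the *Ep400* ko clones. Of 18 markers of neural crest and facial mesenchyme, 12 exceeded a mean of 1 CPM in wildtype cells, whereas *Sox10* and *Alx4* were at 0 in all libraries. *Pax3*, *Msx2*, *Alx1* and *Thy1* had wildtype means under 1 CPM. In such bulk samples, fewer cells of a type and less RNA per cell cannot be told apart.

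Of the 84 members, 44 were high enough to test in at least 1 comparison: 15 *Mmp*, 3 *Timp*, 12 *Adam*, 10 *Adamts* and 4 *Adamtsl* genes. Among the 40 others, 16 had 0 counts in all libraries, which at a floor of 3 counts per library leaves room for low expression. They included *Timp4* and 12 *Adam* genes. The remaining 24 had counts, but 20 of these never exceeded 10 counts in a library, and the highest count of any untested member was 54. In wildtype cells, *Timp2* (155 ± 20.8 CPM per kilobase of exon, SD, n = 4), *Timp1* (149 ± 16.5) and the gelatinase *Mmp2* (127 ± 22.3) stood highest per length, and these 3 do not differ beyond their spread. *Adam9* followed with 52.4 ± 5.55 and *Mmp14*, the membrane-type metalloproteinase that activates the Mmp2 precursor, with 42.5 ± 3.07 CPM per kilobase. The stromelysin *Mmp3* (40.1 ± 24.4) overlapped with both of them. Next came the sheddase *Adam10* (24.1 ± 3.41), the stromelysin *Mmp11* (16.4 ± 3.85), the COMP-cleaving *Adamts7* (14.4 ± 5.90) and the sheddase *Adam17* (12.2 ± 1.13), of which the last 3 do not differ beyond their spread.

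**Figure D1:**
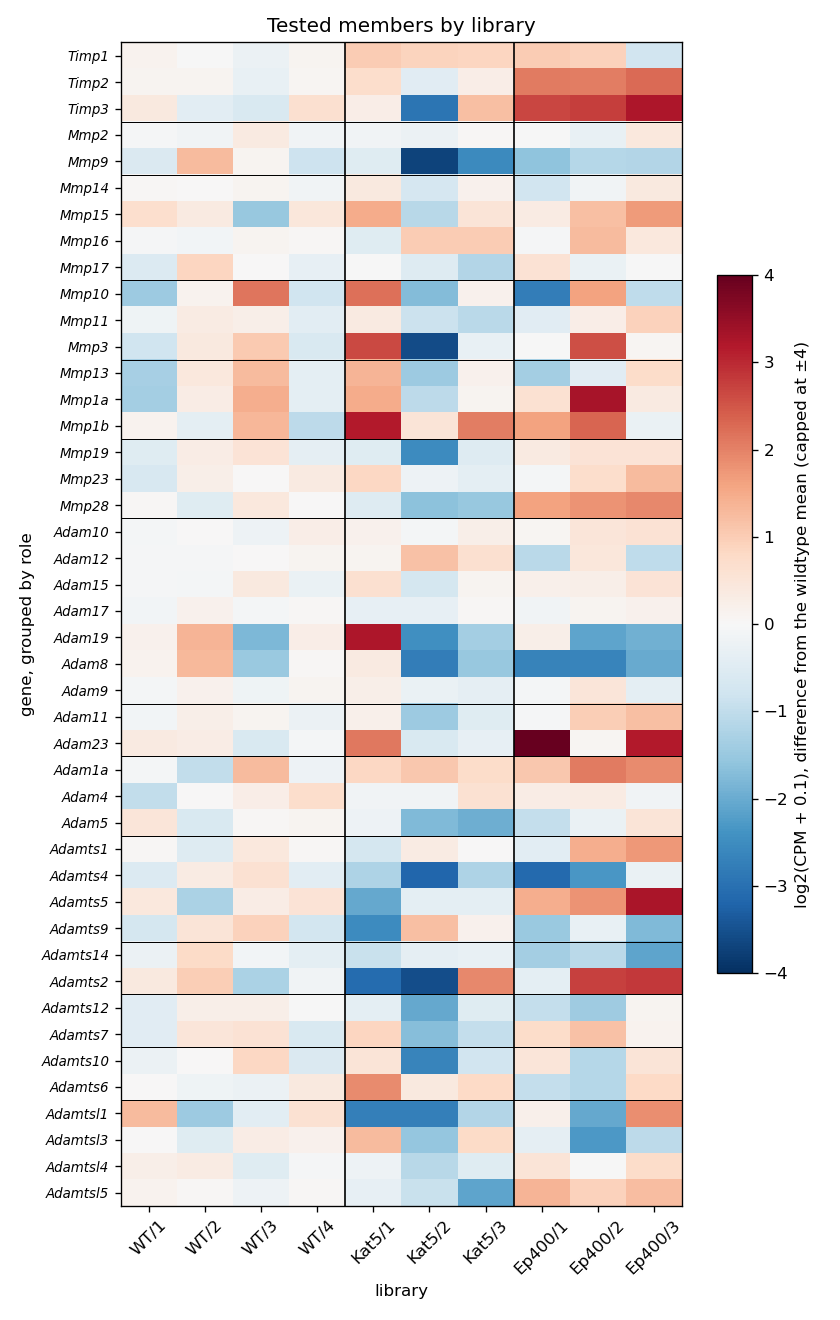
The 44 tested members (rows, grouped by role) in the 10 libraries (columns), as the difference of log2(CPM + 0.1) from the wildtype mean, capped at ±4. *Timp2* and *Timp3* are raised in the 3 *Ep400* ko clones, whereas *Mmp3* is far up in Kat5/1 and Ep400/2 and far down in Kat5/2.

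Sequences upstream of the start site are shown for *Mmp3*, whose level differed widely between clones, for its neighbors *Mmp10* and *Mmp13* and for 2 TIMPs. *Mmp10* and *Mmp13* were added after their values had been seen. The sequences are the last 100 bases before the annotated start (RefSeq, GRCm38.p6; for *Timp3*, the bases before the GENCODE start, which lies 40 bases upstream of RefSeq's), printed 5′ to 3′ on the coding strand. Capitals mark the AP-1 consensus (TGACTCA or TGAGTCA), the GC box (GGGCGG or CCGCCC) and TATAAA.
Mmp3, chr9:7445722-7445821 (+): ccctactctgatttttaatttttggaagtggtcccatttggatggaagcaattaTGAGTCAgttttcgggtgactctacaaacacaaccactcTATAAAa
Mmp10, chr9:7502242-7502341 (+): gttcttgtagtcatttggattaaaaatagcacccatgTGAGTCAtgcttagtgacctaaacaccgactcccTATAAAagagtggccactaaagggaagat
Mmp13, chr9:7272414-7272513 (+): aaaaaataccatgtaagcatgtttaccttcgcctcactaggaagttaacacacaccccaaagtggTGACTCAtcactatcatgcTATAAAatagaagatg
Timp1, chrX:20870066-20870165 (+): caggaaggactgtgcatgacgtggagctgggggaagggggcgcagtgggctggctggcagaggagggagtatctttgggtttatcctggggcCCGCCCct
Timp3, chr10:86300272-86300371 (+): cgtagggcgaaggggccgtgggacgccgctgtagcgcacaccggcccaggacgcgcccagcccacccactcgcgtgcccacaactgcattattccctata

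The 3 metalloproteinase promoters each hold an AP-1 consensus upstream of a TATAAA, 46, 63 and 35 bases before the start of *Mmp3*, *Mmp10* and *Mmp13*, respectively. Over the 250 bases before the start, searched on both strands, the AP-1 consensus occurred in 9 of 58 windows of members (15.5%) and in 4.46% of all 32851 windows of the table. The 58 windows belong to 53 members. Of these 9 windows, 7 precede *Mmp* genes of the cluster on chromosome 9 that holds *Mmp3*. TATAAA, searched on the coding strand alone, occurred in 19% of the windows of members and in 7.59% of all windows, and the GC box in 41.4% and 32.7%. *Timp2* and *Timp3* each have 1 GC box, 37 and 15 bases before the RefSeq start, and neither has a TATAAA. Both boxes lie inside the gene as GENCODE places it. The whole *Timp2* window does so too, so it holds no bases upstream of that gene and is not shown. Such matches describe the sequence and were not tested for function.

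The share of reads on TIMP genes was higher in *Ep400* ko clones. In wildtype cells, these genes together received 0.0626% to 0.0863% of all counts, in *Kat5* ko clones 0.0644% to 0.131% and in *Ep400* ko clones 0.303% to 0.389%. The *Mmp* genes together received 0.0743% to 0.110%, 0.0560% to 0.124% and 0.0786% to 0.131% in the same order. For each read on an *Mmp* gene, 0.568 to 1.15 reads fell on TIMP genes in wildtype cells, 1.05 to 1.23 in *Kat5* ko clones and 2.66 to 4.18 in *Ep400* ko clones. These sums are given as a description, with no test.

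*Timp2* encodes an inhibitor that also takes part in the activation of the Mmp2 precursor at the cell surface. The gene (ENSMUSG00000017466) lies on chromosome 11 from 118301069 to 118355740 on the minus strand. Its level was 654, 647, 484 and 633 CPM in the wildtype libraries WT/1 to WT/4, 987, 440 and 719 CPM in Kat5/1 to Kat5/3, and 2558, 2455 and 2895 CPM in Ep400/1 to Ep400/3. All *Ep400* ko clones lay above every other library, whereas wildtype and *Kat5* ko libraries overlapped. The mean in *Ep400* ko clones was 436% of the wildtype mean, and the log2-fold change of 2.17 ± 0.17 (standard error) had an adjusted p of 0.0012. In *Kat5* ko clones, the log2-fold change was 0.24 ± 0.26 (adjusted p = 0.62). The direct comparison of *Ep400* with *Kat5* ko clones gave 1.88 ± 0.33 (adjusted p = 0.0312), but this call was lost when any library other than Kat5/1 was left out (adjusted p up to 0.121).

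*Timp3* encodes the inhibitor that binds to the matrix itself and that also blocks several ADAMs and ADAMTS enzymes. The gene (ENSMUSG00000020044) lies on chromosome 10 from 86300372 to 86349506 on the plus strand. It reached 69.3, 39.7, 34.6 and 82.2 CPM in wildtype cells, 64.2, 6.93 and 122 CPM in *Kat5* ko clones and 336, 360 and 501 CPM in *Ep400* ko clones. Again the *Ep400* ko clones lay above all others, and the *Kat5* ko clones spanned the wildtype range on both sides. The mean in *Ep400* ko clones was 708% of the wildtype mean (log2-fold change 2.87 ± 0.33, adjusted p = 0.00283). For the *Kat5* ko clones, the log2-fold change was 0.18 ± 0.74 (adjusted p = 0.909). Between the knockouts it was 2.63 ± 0.85, which did not pass the threshold (adjusted p = 0.0852). *Timp3* shares 1733 exonic bases with *Syn3* on the opposite strand. *Syn3* had 1 to 26 counts per library, compared with 212 to 20698 for *Timp3*.

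*Timp1* encodes the inducible secreted inhibitor, and its gene (ENSMUSG00000001131) lies on chromosome X from 20870166 to 20874735 on the plus strand. It had 143, 129, 113 and 143 CPM in wildtype cells, 264, 242 and 237 CPM in *Kat5* ko clones and 268, 251 and 77.1 CPM in *Ep400* ko clones. All *Kat5* ko clones were above all wildtype libraries. Among *Ep400* ko clones, Ep400/1 and Ep400/2 were as high as the *Kat5* ko clones, whereas Ep400/3 was below every other library. In *Kat5* ko clones, *Timp1* rose to 187% of the wildtype mean (log2-fold change 0.90 ± 0.14, adjusted p = 0.0426). This call was close to the threshold: it was kept only without Kat5/1 and was lost when any other library was left out (adjusted p up to 0.163). For *Ep400* ko clones the log2-fold change was 0.63 ± 0.36 (adjusted p = 0.261), and without Ep400/3 it was 1.01 (adjusted p = 0.00842). The difference between the knockouts was −0.32 ± 0.43 (adjusted p = 0.626).

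**Figure D2:**
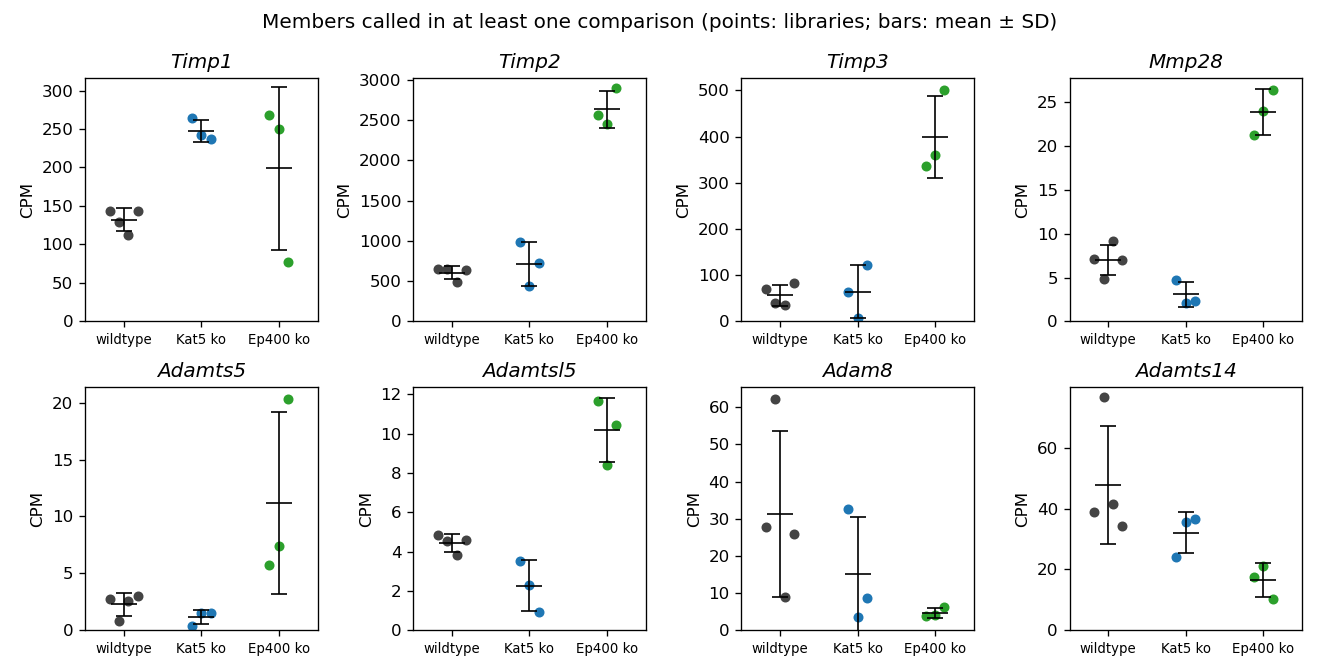
Normalized level (CPM, linear axes from 0) of the 8 members called in at least 1 comparison, with points for libraries and bars for the mean ± SD of 4 wildtype, 3 *Kat5* ko and 3 *Ep400* ko libraries. In *Ep400* ko clones, *Timp2*, *Timp3*, *Mmp28*, *Adamtsl5* and *Adamts5* lie above and *Adamts14* lies below all libraries of both other groups. *Timp1* differs between Ep400/3 (77.1 CPM) and the other *Ep400* ko clones.

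Few members were called in *Kat5* ko clones against wildtype. *Timp1* was the 1 member of 42 tested that passed an adjusted p of at most 0.05 (2.38%), compared with 0.625% of all 13434 genes tested and 0.179% called higher. With its log2-fold change under 1, it was no DEG, so that 0 of 42 members were DEGs compared with 0.476% of all genes (a DEG also needs a log2-fold change of 1 or more in size and more than 100 normalized counts on average in either group). At an unadjusted p of at most 0.05, 7 members passed (16.7%, compared with 22.3% of all genes), namely *Timp1*, *Adam12*, *Adamts6* and *Mmp1b* with higher and *Mmp28*, *Adamts4* and *Adamtsl1* with lower values. Without Kat5/1, 7 members were called (*Timp1*, *Adam5*, *Adam12*, *Mmp9*, *Mmp11*, *Mmp16* and *Mmp28*), as were 19.4% of all genes. Without any other single library no member was called, and 0.00752% to 0.42% of all genes were. Of the 42 members, 6 (14.3%) did not overlap between the groups, compared with 19.6% of all genes. The median log2-fold change was −0.035 over tested members and 3.2e-05 over all tested genes.

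In *Ep400* ko clones, 7 of 43 tested members (16.3%) were called against wildtype, all of them DEGs. Of all 13836 genes, 13.7% were called and 6.42% were DEGs. Of the 7 members, 5 were higher (11.6%, compared with 8% of all genes) and 2 lower (4.65%, compared with 5.72%). The count was 4 without WT/1, when 5.85% of all genes were called, and at most 10, without Ep400/1, when 14.3% were. The median log2-fold change was 0.37 over tested members and 0.043 over all genes. Of the 43 members, 8 (18.6%) did not overlap between the groups, as was the case for 30.2% of all genes, and 15 (34.9%) passed at an unadjusted p, compared with 32.2%.

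**Figure D3:**
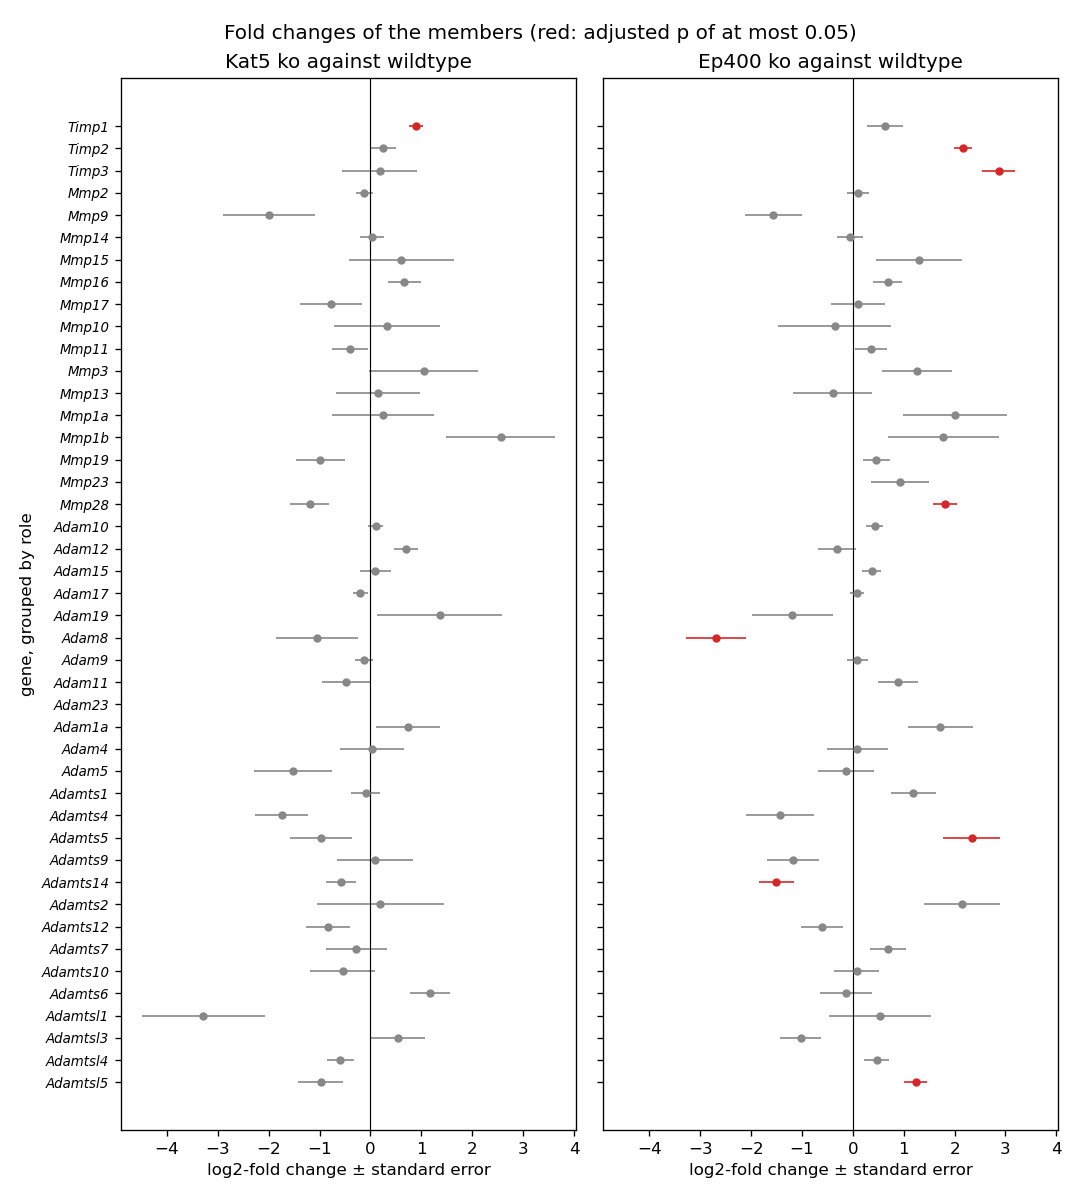
Log2-fold changes (points) with their standard errors (bars) for the members tested against wildtype, left for *Kat5* ko and right for *Ep400* ko clones. Red marks an adjusted p of at most 0.05, which 1 member reached on the left and 7 on the right, and genes without a point were not tested in that comparison.

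Besides *Timp2* and *Timp3*, the secreted metalloproteinase *Mmp28*, also called epilysin, rose in *Ep400* ko clones. The gene (ENSMUSG00000020682) is on chromosome 11 from 83440768 to 83463071 on the minus strand. It had 7.10, 4.86, 9.13 and 6.98 CPM in wildtype cells, 4.73, 2.12 and 2.34 CPM in *Kat5* ko clones and 21.3, 24.1 and 26.4 CPM in *Ep400* ko clones. The groups did not overlap, with *Kat5* ko clones lowest and *Ep400* ko clones highest. The mean was 341% of wildtype in *Ep400* ko clones (log2-fold change 1.81 ± 0.23, adjusted p = 0.00378) and 43.7% in *Kat5* ko clones, where the log2-fold change of −1.20 ± 0.38 did not pass (adjusted p = 0.129). Between the knockouts, the log2-fold change was 2.96 ± 0.39 (adjusted p = 0.0216). *Mmp28* shares 466 exonic bases with *1700020L24Rik* on the opposite strand, which had 0 to 6 counts per library. The call between the knockouts was lost without Kat5/3, Ep400/2 or Ep400/3, with adjusted p up to 0.0798.

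The aggrecanase *Adamts5*, an ADAMTS enzyme that cleaves large proteoglycans such as aggrecan and versican, was low in wildtype cells and higher in *Ep400* ko clones. The gene (ENSMUSG00000022894) lies on chromosome 16 from 85856173 to 85901828 on the minus strand, next to *Adamts1*. Values were 2.79, 0.786, 2.57 and 3.02 CPM in wildtype cells, 0.415, 1.54 and 1.56 CPM in *Kat5* ko clones and 5.76, 7.40 and 20.3 CPM in *Ep400* ko clones. Ep400/3 was far above the others. The log2-fold change against wildtype was 2.34 ± 0.57 (adjusted p = 0.0303), but it was 1.56 without Ep400/3, and 5 of the 7 libraries were each needed for the call (WT/1 to WT/4 and Ep400/3, adjusted p up to 0.0787). Against *Kat5* ko clones it was 3.26 ± 0.72 (adjusted p = 0.044), which was lost without any library other than Kat5/1 (adjusted p up to 0.142). The neighbor *Adamts1* ranged from 41.7 to 80.6 CPM in wildtype cells and was 45.1, 164 and 199 CPM in the *Ep400* ko clones, which was not called (adjusted p = 0.104).

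*Adamtsl5* encodes a catalytically inactive ADAMTS-like protein. Its gene (ENSMUSG00000043822) lies on chromosome 10 from 80339110 to 80348412 on the minus strand. It had 4.86, 4.54, 3.81 and 4.60 CPM in wildtype cells, 3.54, 2.32 and 0.942 CPM in *Kat5* ko clones and 11.6, 8.42 and 10.5 CPM in *Ep400* ko clones, without overlap among the groups. The mean rose to 229% of wildtype in *Ep400* ko clones (log2-fold change 1.24 ± 0.23, adjusted p = 0.0127). It was 50.9% in *Kat5* ko clones (−0.98 ± 0.44, adjusted p = 0.238). The difference between the knockouts was 2.16 ± 0.53 and did not pass the threshold (adjusted p = 0.0516). It passed with DESeq2 (adjusted p = 0.000455), without a low-count filter (0.0293), in one fit of all 10 libraries (0.00884) and with chromosome offsets (0.0495).

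The members that fell in *Ep400* ko clones were *Adam8* and *Adamts14*. Adam8 is a membrane-bound sheddase, and its gene (ENSMUSG00000025473) lies on chromosome 7 from 139978932 to 139992562 on the minus strand. It had 27.7, 62.2, 9.0 and 25.8 CPM in wildtype cells, 32.6, 3.63 and 8.76 CPM in *Kat5* ko clones and 3.90, 3.99 and 6.20 CPM in *Ep400* ko clones. The *Ep400* ko clones lay below all wildtype libraries, but the wildtype libraries themselves ranged widely and Kat5/2 was as low. The log2-fold change was −2.69 ± 0.59 (adjusted p = 0.0222), and the call was lost without WT/1, WT/4, Ep400/1 or Ep400/2 (adjusted p up to 0.0596).

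Adamts14 is a procollagen N-proteinase, an enzyme that trims fibrillar collagens for assembly. Its gene (ENSMUSG00000059901) lies on chromosome 10 from 61197112 to 61273438 on the minus strand. Values were 38.7, 76.5, 41.7 and 34.4 CPM in wildtype cells, 24.2, 35.5 and 36.7 CPM in *Kat5* ko clones and 17.7, 21.3 and 10.4 CPM in *Ep400* ko clones. The *Ep400* ko clones were below every other library. The mean was 34.4% of wildtype (log2-fold change −1.50 ± 0.35, adjusted p = 0.0255), and the call was lost without WT/1 or Ep400/3 (adjusted p up to 0.0592). In *Kat5* ko clones, the log2-fold change was −0.58 ± 0.30 (adjusted p = 0.287).

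Between the knockouts, 3 of 43 tested members were called (6.98%), all higher in *Ep400* ko clones, compared with 7.05% of all 13587 genes and 4.22% called higher. All 3 were also DEGs (5.36% of all genes). These were *Timp2*, *Mmp28* and *Adamts5*. The count was 0 without Kat5/3, Ep400/2 or Ep400/3, when 0.0356%, 0.207% and 0.0218% of all genes were called. It was 1 without Kat5/2 or Ep400/1 (0.571% and 2.45% of all genes) and 6 without Kat5/1 (18%). Without overlap between the 2 sets of clones were 8 members (18.6%), compared with 38.9% of all genes, and 8 passed at an unadjusted p, compared with 32.4%. The comparisons of both knockouts with wildtype share the wildtype libraries.

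Neither of the 2 gelatinases was called in any comparison. Of all genes, 0.625% were called for *Kat5* ko clones, 13.7% for *Ep400* ko clones and 7.05% between the knockouts. *Mmp2*, which cleaves gelatin and collagen IV, had 409, 382, 541 and 385 CPM in wildtype cells, 388, 359 and 440 CPM in *Kat5* ko clones and 419, 344 and 569 CPM in *Ep400* ko clones. These ranges overlap throughout, and the log2-fold changes were −0.12 ± 0.17 for *Kat5* and 0.09 ± 0.21 for *Ep400* ko clones. The other gelatinase, *Mmp9*, ranged from 1.60 to 7.05 CPM in wildtype cells, from 0.131 to 2.02 CPM in *Kat5* ko clones and from 0.887 to 1.26 CPM in *Ep400* ko clones. All *Ep400* ko clones were below all wildtype libraries, without passing the test (log2-fold change −1.56 ± 0.57, adjusted p = 0.1).

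Of 6 membrane-type metalloproteinases, 4 were tested and none was called in any comparison, with 0.625%, 13.7% and 7.05% of all genes called against wildtype for *Kat5* and *Ep400* ko clones and in the direct comparison, respectively. *Mmp14* ranged from 227 to 270 CPM in wildtype cells, from 159 to 334 CPM in *Kat5* ko clones and from 150 to 331 CPM in *Ep400* ko clones, so the clones spread to both sides of the wildtype range. *Mmp16*, another membrane-type activator of Mmp2, had 17.8 to 21.1 CPM in wildtype cells, 13.7, 39.3 and 39.7 CPM in *Kat5* ko clones and 18.7, 46.2 and 25.8 CPM in *Ep400* ko clones. *Mmp15* and *Mmp17* stayed under 1 CPM in all libraries.

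Among the ADAMs, *Adam10* and *Adam17*, the main sheddases for Notch receptors and growth factor precursors, did not pass the test in any comparison. *Adam10* ranged from 102 to 141 CPM in wildtype cells, from 111 to 140 CPM in *Kat5* ko clones and from 125 to 174 CPM in *Ep400* ko clones (log2-fold change 0.43 ± 0.17, adjusted p = 0.124). *Adam17* ranged from 79.9 to 98.0, from 69.1 to 90.5 and from 79.1 to 97.3 CPM. *Adam9* had 191 to 240 CPM in wildtype cells, 168 to 252 CPM in *Kat5* ko clones and 164 to 301 CPM in *Ep400* ko clones. It was not called in any comparison.

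*Adamts7*, which cleaves the cartilage matrix protein Comp, ranged from 55.6 to 127 CPM in wildtype cells, from 25.9 to 154 CPM in *Kat5* ko clones and from 93.0 to 191 CPM in *Ep400* ko clones. *Mmp11* had 33.4 to 56.0, 21.2 to 57.4 and 32.2 to 83.8 CPM. Neither passed the test in any comparison. Over all tested members, Kat5/2 alone held the lowest value for 17 of 44, and Ep400/3 the highest for 15 and Kat5/1 for 9. The shares over all genes were not computed, so these counts do not set the members apart. Of all libraries, Kat5/2 had the fewest genes with counts (16748) and Ep400/3 the most (19035).

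The stromelysin *Mmp3* differed widely between clones of the same knockout. It had 35.8, 81.8, 130 and 41.0 CPM in wildtype cells, 390, 5.23 and 51.8 CPM in *Kat5* ko clones and 62.1, 377 and 66.8 CPM in *Ep400* ko clones. Kat5/1 and Ep400/2 thus exceeded all wildtype libraries and Kat5/2 was below them, and the log2-fold changes were 1.04 ± 1.08 for *Kat5* (adjusted p = 0.601) and 1.26 ± 0.69 for *Ep400* ko clones (adjusted p = 0.241). *Mmp3* lies in a cluster of 10 *Mmp* genes on chromosome 9 between 7272514 and 7699585, a span of 427072 bases. Of these genes, 5 were tested and none was called in any comparison. The shares of all genes called were 0.625% for *Kat5* ko clones, 13.7% for *Ep400* ko clones and 7.05% between the knockouts. The summed level of the cluster was 38.1 to 156 CPM in wildtype cells, 418, 7.19 and 59.5 CPM in *Kat5* ko clones and 64.0, 397 and 71.3 CPM in *Ep400* ko clones. *Mmp3* made up 72.7% to 97.0% of it. Without *Mmp3*, the cluster had 2.27 to 25.7 CPM in wildtype cells, 28.3, 1.96 and 7.73 CPM in *Kat5* ko clones and 1.91, 20.5 and 4.58 CPM in *Ep400* ko clones. Kat5/1 and Ep400/2 again were the highest clones of their groups, but WT/3 was between them. *Mmp3* and *Mmp10* share 8.39% and 8.37% of their 50-base stretches with other genes, and *Mmp1a* and *Mmp1b* 8.15% and 11.8%, which leaves their counts somewhat uncertain.

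**Figure D4:**
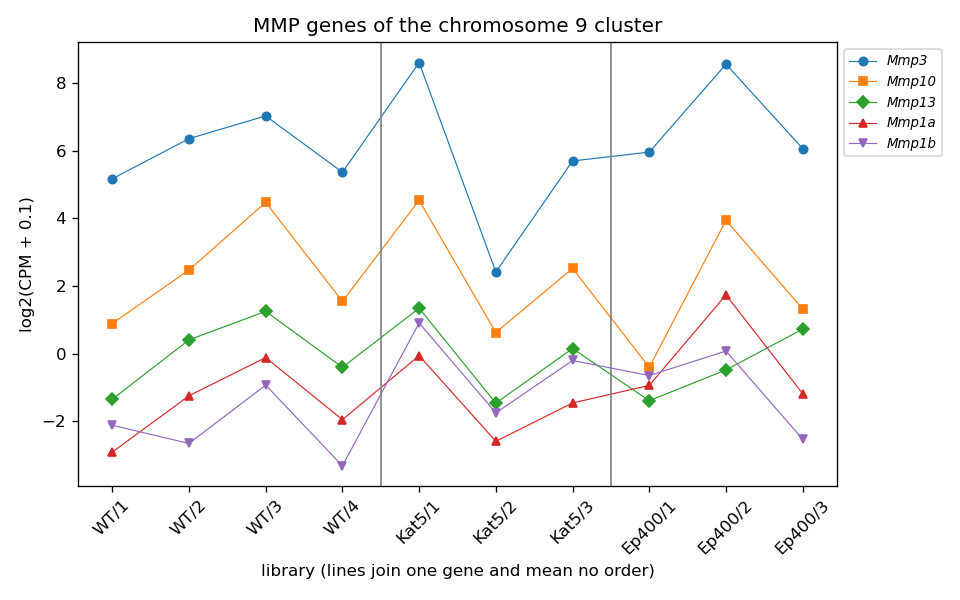
Levels, as log2(CPM + 0.1), of the 5 tested *Mmp* genes of the chromosome 9 cluster in each library, with lines that join the values of 1 gene and imply no order. *Mmp3* ranges from 5.23 CPM in Kat5/2 to 390 CPM in Kat5/1, and the other 4 genes are lower than *Mmp3* in every library.

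Genes that act on or beside these enzymes were counted in lists by role. Their calls were not followed gene by gene with libraries left out or under other fits. Among 11 tested activators and partners, 4 rose in *Ep400* ko clones and none fell, compared with 8% and 5.72% of all genes. They were *Reck*, a membrane-anchored inhibitor of metalloproteinases (log2-fold change 1.45, adjusted p = 0.0493), and the tetraspanins *Tspan5* (0.88, adjusted p = 0.023), *Tspan15* (1.88, adjusted p = 0.00994) and *Tspan17* (1.28, adjusted p = 0.00835), which escort Adam10 to the cell surface. *Reck*, whose call was close to the threshold, had 5.45 to 7.31 CPM in wildtype cells and 1.54 to 5.61 CPM in *Kat5* ko clones. In Ep400/1 to Ep400/3 it had 10.9, 8.36 and 28.9 CPM, so Ep400/3 was far above the others. *Tspan15* had 7.30 to 16.1 CPM in wildtype cells, 2.21 to 7.19 CPM in *Kat5* ko clones and 28.5 to 61.7 CPM in *Ep400* ko clones. *Tspan5* and *Tspan15* were also higher in *Ep400* than in *Kat5* ko clones (1.07, adjusted p = 0.0415, and 3.04, adjusted p = 0.0301). None of 12 tested was called in *Kat5* ko clones, where 0.625% of all genes were.

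Of the plasminogen system, 1 of 6 tested genes was called in *Kat5* ko clones, compared with 0.625% of all genes. It was the urokinase receptor *Plaur*, with a mean of 48.9 CPM in wildtype and 116 CPM in *Kat5* ko cells (log2-fold change 1.24, adjusted p = 0.0493). This call was close to the threshold. It was lost in a fit that paired equal replicate numbers, where 0 genes in all were called. In *Ep400* ko clones 1 of 5 was called (13.7% of all genes), the protease inhibitor *Serpine2* (1.82, adjusted p = 0.0406). *Serpine2* had 12.3 to 22.9 CPM in wildtype cells and 18.8, 48.9 and 98.9 CPM in *Ep400* ko clones. In *Kat5* ko clones it had 18.5, 0.784 and 154 CPM, and its log2-fold change of 1.82 was not called (adjusted p = 0.378). Among 12 other matrix proteinases tested in *Ep400* ko clones, 3 rose, namely the cathepsins *Ctsb* (0.99, adjusted p = 0.0136) and *Ctsk* (3.56, adjusted p = 0.00814) and the membrane peptidase *Mme* (4.33, adjusted p = 0.0215), and none fell (8% and 5.72% of all genes). *Ctsk* was at most 0.519 CPM in wildtype cells and 2.52, 7.37 and 1.82 CPM in *Ep400* ko clones. *Mme* was at most 1.10 CPM in wildtype cells and 5.04, 3.04 and 22.0 CPM in Ep400/1 to Ep400/3. None of 11 of these proteinases tested was called in *Kat5* ko clones, where 0.625% of all genes were. Between the knockouts, *Ctsk* (3.91, adjusted p = 0.0333) and the endothelin-converting enzyme *Ece1* (0.82, adjusted p = 0.0469) were higher in *Ep400* ko clones, and the plasminogen activator inhibitor *Serpinb2* was lower (adjusted p = 0.0295).

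Among 11 tested matrix substrates of ADAMTS enzymes, 1 rose and 2 fell in *Ep400* ko clones, compared with 8% and 5.72% of all genes. *Acan*, which encodes the cartilage proteoglycan aggrecan, had 22.6, 20.9, 5.64 and 24.9 CPM in wildtype cells, 3.37, 4.77 and 55.6 CPM in *Kat5* ko clones and 0.187, 0.0307 and 0 CPM in *Ep400* ko clones (adjusted p = 0.00337). *Fbn2*, which encodes a microfibril protein, ranged from 28.4 to 217 CPM in wildtype cells and from 8.36 to 16.5 CPM in *Ep400* ko clones (log2-fold change −3.19, adjusted p = 0.0147). In Kat5/1 to Kat5/3 it had 7.36, 105 and 82.7 CPM, so Kat5/1 was below every *Ep400* ko clone. *Comp*, a substrate of Adamts7, was at most 0.259 CPM in wildtype cells and 0.630 to 1.70 CPM in *Ep400* ko clones (adjusted p = 0.0268). None of 10 was called in *Kat5* ko clones, where 0.625% of all genes were. Between the knockouts, *Acan* was lower (log2-fold change −8.08, adjusted p = 0.0379) and *Comp* higher (3.91, adjusted p = 0.0425) in *Ep400* ko clones.

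Levels of marker lists were set beside these results. The summed level of 8 osteoblast and chondrocyte markers was 0.408 to 6.27 CPM in wildtype cells, 0.523 to 6.99 CPM in *Kat5* ko clones and 33.8 to 43.1 CPM in *Ep400* ko clones, of which *Dmp1* alone made up 33.1 to 42.0 CPM. The other 7 stayed under 1 CPM in *Ep400* ko clones, with *Ibsp* and *Col9a1* at 0 in all libraries. The summed neural crest and mesenchyme list was 1740 to 2010 CPM in wildtype cells, 1716 to 1933 CPM in *Kat5* ko clones and 2432 to 3625 CPM in *Ep400* ko clones. This sum included *Prrx1* (656 to 971 CPM in wildtype cells and 877 to 2099 CPM in *Ep400* ko clones) and *Pdgfra* (106 to 138 and 511 to 631 CPM). *Sox9* (58.7 to 83.3 and 40.1 to 55.9 CPM), *Ets1* (90.8 to 123 and 55.0 to 89.5 CPM) and *Snai1* (17.6 to 24.5 and 13.9 to 16.8 CPM) were lower in all *Ep400* ko clones than in all wildtype libraries. Higher in all of them were *Twist1* (62.6 to 80.6 and 81.9 to 119 CPM) and *Snai2* (19.6 to 35.4 and 41.5 to 61.2 CPM). So were *Pdgfra*, *Tfap2a* (19.6 to 45.3 and 57.4 to 111 CPM) and, at low levels, *Pax3* (at most 0.185 and 1.29 to 6.77 CPM). *Msx2* was likewise higher (at most 1.06 and 1.40 to 2.64 CPM). The 5 smooth muscle markers summed to 5.88 to 17.0 CPM in wildtype cells and 2.33 to 57.2 CPM in *Ep400* ko clones, but to 687 CPM in Kat5/1, where *Acta2* had 506 and *Tagln* 181 CPM, and 0.457 CPM in Kat5/2. Markers of blood, endothelium and epithelium summed to 6.72 to 9.27, 3.43 to 7.49 and 3.13 to 8.36 CPM. Mitochondrial shares were highest in Ep400/3 (3.24%) and lowest in Kat5/1 (0.893%). The part of these differences in the levels of the proteinases and TIMPs was not tested. The median log2 difference of all genes on chromosome 11, which holds *Timp2* and *Mmp28*, was −0.19, −0.24 and −0.26 in Ep400/1 to Ep400/3. On chromosome 10, which holds *Timp3*, it was −0.039, −0.018 and −0.066. What part such shifts have in the levels of these genes was not tested.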

How the data were processed

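The raw counts were deposited by the authors as whole reads per gene. The processing notes list bcl2fastq 2.20, STAR 2.7.3, DESeq2 1.36.0 and R 4.2.1 with build mm10, from a stranded poly-A kit, and the counting program, strand setting and annotation are not given in the sources used here. Deposited signal values in normalized tables (counts divided by size factors by the authors) were not used.

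For each comparison, filterByExpr removed low genes, TMM factors scaled the libraries, and edgeR's quasi-likelihood test was applied with robust estimation and Benjamini-Hochberg adjustment over all genes tested (R 4.3.3, edgeR 4.0.16; alternatively DESeq2 1.42.0). CPM used TMM factors of all 10 libraries. Standard errors were derived from the F statistic. The GENCODE M21 annotation of GRCm38 held 42462 of 43346 gene IDs. Procedures were tested on simulated data.

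Members and lists were chosen with earlier results of these data known. Named members were those called, the 10 highest per length in wildtype cells, TIMPs, gelatinases, tested membrane-type MMPs, *Adam10* and *Adam17*. Exceptions are *Mmp10*, *Mmp13*, *Adamts1*, and members listed at an unadjusted p, without the low-count filter or with a library left out. Groups followed the labels. Libraries of a group differed from each other (chi-square over degrees of freedom at least 26.8), so all were kept apart. The labels call wildtype samples biological replicates without saying how they were separated, so p-values measure only the spread between these samples. Alternatives were other normalization, filters, one fit of all libraries, chromosome offsets, a replicate block and each library left out. Ordinary instead of robust estimation was added after the data had been seen.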

Additional observations from a re-analysis of the deposited data

Results flagged for a closer look

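In 4 wildtype libraries, *Timp2* was 484 CPM in WT/3, whereas the nearest other library had 633 CPM, and *Mmp2* was 541 CPM in WT/3 with 409 CPM in the nearest other library. Both gaps exceeded Dixon's 95% critical value for 4 samples, with ratios of gap to range of 0.879 and 0.83. Of the 20 named genes checked for this, chance alone flags about 1 in 20 groups.

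The *Ep400* and *Kat5* ko clones differed from each other in 3 members in the direct edgeR test. The log2-fold change of *Ep400* over *Kat5* ko clones was 3.26 for *Adamts5*, 2.96 for *Mmp28* and 1.88 for *Timp2*. For *Adamts5* and *Mmp28*, the mean of *Kat5* ko clones was lower and that of *Ep400* ko clones higher than the wildtype mean.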

How the results depend on the processing

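In the comparison of *Kat5* ko with wildtype, 1 member was called, and 4 were with DESeq2, 0 with one fit of all 10 libraries, 0 with the replicate block, 7 at an unadjusted p and 0 to 7 with each library left out. DEGs among members were 0, with 3 in DESeq2, 3 at an unadjusted p and 0 to 3 with libraries left out. For *Ep400*, the 7 members called became 11 with DESeq2, 2 with the replicate block (*Timp2* and *Timp3*), 15 at an unadjusted p and 4 to 10 with libraries left out. The 7 DEGs became 11, 2, 12 and 4 to 9 in the same order. Between the knockouts, 3 members called became 8 with DESeq2, 7 with one fit, 8 at an unadjusted p and 0 to 6 with libraries left out. The 3 DEGs there became 7, 7, 7 and 0 to 6. These counts moved with those over all genes: 84 genes called for *Kat5* became 1475 with DESeq2, 27 with one fit, 0 with the block and 2996 at an unadjusted p. For *Ep400*, 1899 became 3131 with DESeq2, 166 with the block and 4453 at an unadjusted p, and between the knockouts 958 became 3067 with DESeq2, 3555 with one fit and 4400 at an unadjusted p. For the counts of members, other normalizations, the low-count filter, chromosome offsets and ordinary estimation stayed within 1.5 times the count. The members themselves could change. Without the low-count filter, 9 were called for *Ep400* (8.23% of all genes), with *Adam7*, *Adam23* and *Adamts15* added and *Adam8* lost.

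In *Ep400* ko clones, *Timp2* and *Timp3* were called under all 8 alternatives to the edgeR fit other than the unadjusted p, and with each of 7 libraries left out (log2-fold changes 2.06 to 2.21 and 2.66 to 3.10). *Mmp28* (1.67 to 1.95) and *Adamtsl5* (1.13 to 1.33) were also called with each library left out, but lost the call under the replicate block (adjusted p = 0.051 and 0.1), and *Adamtsl5* also in one fit of all libraries (0.0682). *Adam8* lost it without a filter (0.0541), in one fit (0.0564) and under the block (0.129), *Adamts5* (0.0925) and *Adamts14* (0.0512) under the block. *Timp1* in *Kat5* ko clones lost it in one fit (0.169) and under the block (0.157). Calls were gained between the knockouts by *Timp3* with DESeq2 (adjusted p = 0.00272) and in one fit (0.03) and by *Adamts14* with DESeq2 (0.0390), and in *Kat5* ko clones by *Mmp28* with DESeq2 (0.0266). The labels do not say that equal replicate numbers pair the libraries. Residuals of same-numbered libraries correlated between −0.0963 and 0.223, and not every library correlated best with its own number. With so few libraries, these correlations cannot decide whether the numbers pair them. Signs turned for uncalled changes: *Timp3* in *Kat5* ko clones was −0.23 under the replicate block and −0.66 to 0.72 with libraries left out, *Timp2* in *Kat5* ko clones −0.064 to 0.50, and *Timp1* between the knockouts −0.59 to 0.062. The causes were not tested. Counts limit members of few reads, and with 3 clones per knockout the spread between clones sets the precision.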

Other observations

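Some members outside the naming rule were picked after their values had been seen, and are given as values. *Adam19*, a membrane-bound sheddase, had 2.28 to 21.1 CPM in wildtype cells, 77.4, 1.41 and 3.09 CPM in Kat5/1 to Kat5/3 and 9.68, 1.81 and 2.08 CPM in Ep400/1 to Ep400/3. *Adamts2*, a procollagen N-proteinase like *Adamts14*, had 1.03 to 5.18 CPM in wildtype cells, 0.221, 0.131 and 10.01 CPM in *Kat5* ko clones and 1.96, 17.7 and 19.1 CPM in *Ep400* ko clones, and was not called (adjusted p = 0.0896 for *Ep400*). *Adam7*, which the low-count filter removed, had 0 counts in all wildtype and *Kat5* ko libraries and 7, 2 and 9 counts in the *Ep400* ko clones. It was called for *Ep400* only when that filter was left out. *Adamts15* had at most 2 counts in wildtype libraries and 42 in Ep400/3, and *Adamts8* had 33 counts in Kat5/1 and 54 in Ep400/1 with at most 6 elsewhere.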
